A study of Mus musculus with 12 samples.

Results

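The genes described here are 10 genes of the mammalian circadian clock, measured in mouse hippocampus: Arntl and Clock, Per1, Per2 and Per3, Cry1 and Cry2, Nr1d1 and Nr1d2, and Dbp. They were chosen by name among the 23352 gene entries of the authors' expression table, and each had 1 entry. No cut on their values was used, but earlier results of these data were known when they were chosen. None of the 10 fell under 1 FPKM in any library, and a filter on low values removed none of them.

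The circadian clock is a transcriptional feedback loop that runs in most cells over about a day. ARNTL (also called BMAL1) and CLOCK pair on E-boxes and switch on the Per, Cry, Nr1d and Dbp genes, PER and CRY proteins then inhibit ARNTL and CLOCK, and the Nr1d proteins repress Arntl. DBP, a transcription factor that binds D-boxes, carries the rhythm to other genes. In the hippocampus the loop is active outside the master clock of the hypothalamus, and the RNAs of Arntl and Dbp peak in opposite parts of the day, so their level in a dissected tissue depends on the hour at which it was taken.

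The study set N40K-Tg mice of the Tg396 line against wild-type mice, all C57BL/6J, at 12 months and at 3 months of age, with 3 libraries in each of the 4 groups. N40K is a truncated form of U1-70K, the splicing protein encoded by Snrnp70, and a modified CaMKIIa promoter drives the transgene in neurons of this single line. Poly-A RNA of the whole hippocampus was sequenced, so fewer cells of a type and less RNA per cell cannot be told apart. The labels used here give neither the hour of dissection nor the sex of the mice, so a difference in hour between groups and an effect of genotype or age cannot be told apart. The labels do not say that each library is a separate mouse, so p-values measure only the spread between these libraries.

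The authors deposited FPKM (fragments scaled by transcript length in kilobases and by M reads mapped). Levels below are FPKM, a scaling meant to make genes of different length comparable. Snrnp70 separated the genotypes, with 305, 320 and 259 FPKM in N40K libraries and 138, 96.0 and 133 FPKM in wild-type libraries at 12 months, and 377 to 401 FPKM against 161 to 179 FPKM at 3 months. Markers of dentate granule, CA1 and CA3 neurons were above 1 FPKM on average in every group, as the tissue label asks. The 5 neuronal markers, none of them at 0, summed to 2002 to 2083 FPKM in N40K libraries and 2260 to 2364 FPKM in wild-type libraries at 12 months, and to 2027 to 2160 FPKM against 2185 to 2464 FPKM at 3 months. The sum was thus lower in N40K libraries without overlap at both ages, although Rbfox3, Slc17a7, Snap25 and Syt1 overlapped singly at 3 months. Other neuronal lists were mixed. The 3 CA1 markers summed to 119.9 to 134.5 FPKM in N40K libraries against 111.3 to 114.9 FPKM in wild-type libraries at 12 months. There Wfs1 separated the genotypes, while Fibcd1 and Mpped1 overlapped. The 2 CA3 markers summed to 78.2 to 96.8 FPKM against 61.2 to 68.8 FPKM at 3 months, where Bok separated the genotypes and Grik4 overlapped. Each of these sums overlapped at the other age. The dentate granule sum overlapped at both ages, although its marker C1ql2 was lower in every N40K library at 12 months. Lists of other cells also separated the genotypes. At 12 months the 4 endothelial markers summed to 28.3 to 29.7 FPKM in N40K libraries against 22.8 to 24.8 FPKM in wild-type libraries. The 4 oligodendrocyte markers summed to 1214 to 1302 FPKM against 1348 to 1465 FPKM there, where Mog and Mag overlapped singly. The 5 thalamic markers summed to 18.8 to 22.7 FPKM against 16.9 to 18.3 FPKM. At 3 months the 4 astrocyte markers summed to 287.4 to 293.8 FPKM in N40K libraries against 271.7 to 283.3 FPKM in wild-type libraries, where only Gfap separated singly. The endothelial, oligodendrocyte, thalamic and astrocyte sums overlapped at the other age, and the microglial sum at both. Endothelial and oligodendrocyte sums were also lower at 12 months than at 3 months without overlap in both genotypes. The part of these marker differences in the results below was not tested. The 5 striatal markers summed to 18.9 FPKM in N40K replicate 1 at 3 months and to at most 9.06 FPKM elsewhere. Ttr, a marker of the choroid plexus that adjoins the hippocampus, varied far more, with 25.2, 223 and 2977 FPKM in N40K libraries against 1282, 1053 and 2152 FPKM in wild-type libraries at 12 months, and 96.8, 1699.9 and 74.3 FPKM against 139, 122 and 5813 FPKM at 3 months. With Ttr as a covariate Cry2 was the one clock gene that lost a genotype call (0.17, adjusted p = 0.0865, at 12 months and 0.12, adjusted p = 0.0659, averaged over both ages). Differences below are of log2(FPKM + 1) with their standard errors, from limma over the 13945 genes that passed the filter on low values, and a gene was called where its Benjamini-Hochberg adjusted p was under 0.05.

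Promoter windows of the clock genes were looked through for the binding sequences of the loop itself. RefSeq (build GRCm38.p6) gave 13 windows for 9 of the 10 genes, each from 250 bases before to 50 bases after a transcription start, and Per2 had no entry. Both strands were searched for the E-box CACGTG, the D-box TTATGTAA, the ROR and REV-ERB element TAGGTCA and the cyclic AMP response element TGACGTCA. The E-box was in the windows of Per1 and Cry1, against 7.15% of 32851 windows of all genes, the D-box in that of Per3, against 0.94%, and the ROR and REV-ERB element in that of Arntl, against 2.61%. TGACGTCA was in none of the 13, against 1.79% of all windows, and its first 5 letters TGACG, which overlap the full element, were in windows of Per1, Cry1 and Cry2, against 20.81%. A match is a run of letters and says nothing about binding in these mice. A window without a match does not show that the gene lacks the element, which may lie outside the window or differ in letters. The 4 windows with a full match follow, 5′ to 3′ on the gene's strand, with the matches in capitals. They lie at chr11:69098699-69098998 on the plus strand (Per1, E-box at -166 from the start), chr10:85185005-85185304 on the minus strand (Cry1, E-box at -60), chr4:151044616-151044915 on the minus strand (Per3, D-boxes at -205 and -158) and chr7:113207261-113207560 on the plus strand (Arntl, second window, element at 30 after the start).
Per1: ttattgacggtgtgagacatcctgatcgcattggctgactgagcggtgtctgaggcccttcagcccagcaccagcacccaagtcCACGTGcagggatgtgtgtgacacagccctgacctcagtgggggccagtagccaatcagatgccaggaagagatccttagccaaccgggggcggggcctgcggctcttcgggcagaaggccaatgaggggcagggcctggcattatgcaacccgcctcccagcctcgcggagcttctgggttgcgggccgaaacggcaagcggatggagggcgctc
Cry1: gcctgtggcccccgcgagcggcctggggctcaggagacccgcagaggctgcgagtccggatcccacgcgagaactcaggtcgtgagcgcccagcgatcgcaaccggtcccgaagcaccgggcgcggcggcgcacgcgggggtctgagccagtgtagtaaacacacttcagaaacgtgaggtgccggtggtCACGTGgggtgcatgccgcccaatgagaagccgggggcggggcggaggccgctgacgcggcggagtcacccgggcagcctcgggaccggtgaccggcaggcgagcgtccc
Per3: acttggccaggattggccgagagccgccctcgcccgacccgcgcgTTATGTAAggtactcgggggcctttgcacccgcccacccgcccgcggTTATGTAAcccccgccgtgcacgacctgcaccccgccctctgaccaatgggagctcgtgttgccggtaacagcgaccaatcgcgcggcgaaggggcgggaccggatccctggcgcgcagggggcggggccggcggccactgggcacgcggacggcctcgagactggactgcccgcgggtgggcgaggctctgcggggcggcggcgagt
Arntl: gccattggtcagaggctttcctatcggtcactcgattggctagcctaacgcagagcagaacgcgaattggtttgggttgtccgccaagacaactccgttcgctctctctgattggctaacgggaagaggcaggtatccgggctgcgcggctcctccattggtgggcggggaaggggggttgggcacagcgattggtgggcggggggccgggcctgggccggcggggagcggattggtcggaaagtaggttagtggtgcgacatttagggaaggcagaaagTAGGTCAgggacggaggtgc

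Of the 10 clock genes, 6 were called higher in N40K hippocampus than in wild type at 12 months and 3 at 3 months. Arntl, an activator, and Cry1 and Nr1d1, which encode repressors, were called at both ages, and the output gene Dbp at 12 months. The genes called at 12 months were Arntl, Clock, Cry1, Cry2, Nr1d1 and Dbp, 6 of 10 against 11.2% of all tested genes called higher, and 0 were called lower, against 7.71%. At 3 months Arntl, Cry1 and Nr1d1 were called higher, 3 of 10 against 7.95% of all tested genes, and 0 were called lower, against 3.49%. The libraries of the genotypes did not overlap, with N40K above, for 7 of 10 genes at 12 months (21.3% of all tested genes) and 6 of 10 at 3 months (20.4%). The median difference over the 10 genes was 0.19 at 12 months, where it was 0.0066 over all genes, and 0.20 at 3 months, where it was 0.020. The counts depended on single libraries: 3 genes were called at 12 months without N40K replicate 1 of that age, and 1 gene at 3 months without wild-type replicate 2 of that age.

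**Figure D1:**
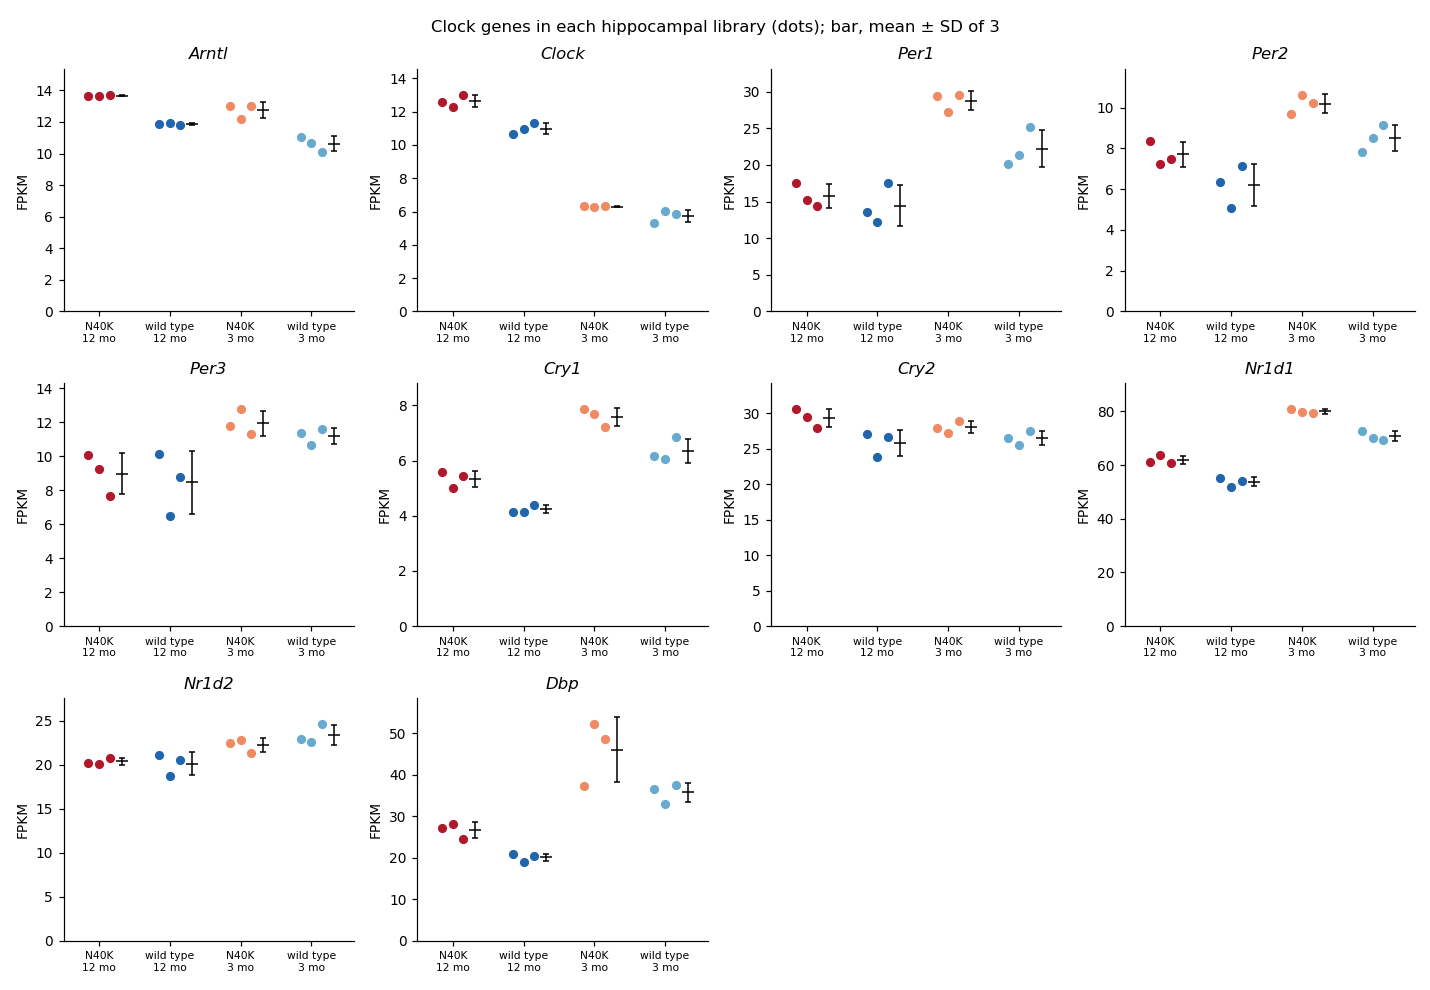
FPKM (vertical axes, each from 0) of the 10 clock genes in each library (dots) of the 4 groups, with mean ± SD of 3 libraries as bars. Arntl and Nr1d1 of N40K libraries lie above wild type at each age, Clock is about doubled at 12 months, and Per1 and Dbp are lower at 12 months.

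The activator Arntl separated the genotypes at both ages. Its level was 13.7, 13.6 and 13.7 FPKM in N40K libraries against 11.9, 12.0 and 11.8 FPKM in wild-type libraries at 12 months, and 13.03, 12.2 and 13.02 FPKM against 11.1, 10.7 and 10.1 FPKM at 3 months. Every N40K library stood above every wild-type library of either age. The difference was 0.19 ± 0.042 at 12 months (adjusted p = 0.0117) and 0.24 ± 0.042 at 3 months (adjusted p = 0.00462), and both calls held in every alternative run. With age Arntl was called higher in wild type, by 0.15 ± 0.042 (adjusted p = 0.0144), a call that ended without wild-type replicate 3 at 3 months (0.12, adjusted p = 0.0639) or with Xist as a covariate (0.14, adjusted p = 0.0742). In N40K mice the age difference of 0.096 ± 0.042 was not called (adjusted p = 0.0777), but it was with median-ratio scaling (0.20, adjusted p = 0.00516).

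Clock, the partner of ARNTL, showed a far larger difference between ages than between genotypes. It had 12.6, 12.3 and 13.02 FPKM in N40K libraries against 10.6, 10.9 and 11.3 FPKM in wild-type libraries at 12 months. At 3 months it had 6.32, 6.25 and 6.32 FPKM in N40K libraries against 5.33, 6.04 and 5.83 FPKM in wild-type libraries. N40K libraries were above wild type without overlap at both ages, and every 12-month library was well above every 3-month one. The genotype difference of 0.19 ± 0.047 was called at 12 months (adjusted p = 0.0190) and that of 0.12 ± 0.047 at 3 months was not (adjusted p = 0.146). The call at 12 months ended without N40K replicate 1 (0.19, adjusted p = 0.0580), N40K replicate 3 (0.17, adjusted p = 0.0644) or wild-type replicate 1 (0.17, adjusted p = 0.0528) of that age. Between 12 and 3 months the ratio of mean FPKM was 2.01 in N40K mice and 1.91 in wild type, with differences of 0.90 ± 0.047 (adjusted p = 3.5e-07) and 0.83 ± 0.047 (adjusted p = 1.0e-06).

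Of the Per genes, which encode the inhibitors that accumulate and then turn off ARNTL and CLOCK, none was called between genotypes at either age. Per1, also an early response gene to hormones and neuronal activity, had 17.6, 15.2 and 14.4 FPKM in N40K libraries against 13.5, 12.3 and 17.5 FPKM in wild-type libraries at 12 months, where the groups overlapped. At 3 months it had 29.4, 27.2 and 29.6 FPKM in N40K libraries against 20.2, 21.4 and 25.1 FPKM in wild-type libraries, where they did not. That difference of 0.36 ± 0.12 missed the threshold (adjusted p = 0.0727), and it passed without wild-type replicate 2 or 3 of the 12-month group, which set only the shared spread (adjusted p = 0.0423 and 0.0299).

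Per2 was above wild type in every N40K library at both ages. It had 8.38, 7.24 and 7.48 FPKM in N40K libraries against 6.36, 5.08 and 7.15 FPKM in wild-type libraries at 12 months, and 9.70, 10.6 and 10.2 FPKM against 7.84, 8.52 and 9.14 FPKM at 3 months. The differences were 0.28 ± 0.096 (adjusted p = 0.0629) and 0.24 ± 0.096 (adjusted p = 0.146). The first was called without wild-type replicate 3 at 12 months (0.38, adjusted p = 0.0198), the second without wild-type replicate 2 at 12 months (0.24, adjusted p = 0.0415). Averaged over both ages, Per2 was called higher, by 0.26 ± 0.068 (adjusted p = 0.0167).

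Per3, the third paralog and the one least needed for rhythm, overlapped between genotypes at both ages. Its level was 10.05, 9.21 and 7.65 FPKM in N40K libraries against 10.1, 6.48 and 8.77 FPKM in wild-type libraries at 12 months, and 11.7, 12.8 and 11.3 FPKM against 11.4, 10.7 and 11.6 FPKM at 3 months. Its coefficient of variation within the 12-month groups, 13.6% in N40K mice and 21.7% in wild type, was high beside 0.41% and 0.58% for Arntl.

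The 3 Per genes were lower at 12 months in both genotypes. The differences between ages were -0.83 ± 0.12 in N40K mice and -0.60 ± 0.12 in wild type for Per1, -0.36 ± 0.096 and -0.41 ± 0.096 for Per2, and -0.38 ± 0.13 and -0.39 ± 0.13 for Per3. Adjusted p was at most 0.0023 for Per1 and 0.0083 for Per2. For Per3 it was 0.0251 in N40K mice and 0.0292 in wild type, and both calls ended with median-ratio scaling (adjusted p = 0.105 and 0.0805). In N40K mice the Per3 call also ended without replicate 2 at 3 months (-0.34, adjusted p = 0.0818) or replicate 3 at 12 months (-0.28, adjusted p = 0.0979). In wild type it ended without replicate 1 (-0.38, adjusted p = 0.0730) or replicate 3 (-0.37, adjusted p = 0.0770) at 3 months, or replicate 2 at 12 months (-0.23, adjusted p = 0.0863).

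The cryptochromes, the transcriptional repressors that act with PER, were each called higher in N40K mice in at least 1 age. Cry1 had 5.58, 5.03 and 5.43 FPKM in N40K libraries against 4.15, 4.15 and 4.40 FPKM in wild-type libraries at 12 months. At 3 months it had 7.87, 7.68 and 7.24 FPKM in N40K libraries against 6.16, 6.05 and 6.84 FPKM in wild-type libraries. The genotypes did not overlap at either age, and every 12-month library lay below every 3-month one. Cry1 was higher in N40K mice by 0.28 ± 0.057 at 12 months (adjusted p = 0.00724), a call that held in every alternative run, and by 0.23 ± 0.057 at 3 months (adjusted p = 0.0264). The 3-month call ended without N40K replicate 1 (0.20, adjusted p = 0.0779) or 2 (0.22, adjusted p = 0.0835) or wild-type replicate 1 (0.21, adjusted p = 0.0843) or 2 (0.20, adjusted p = 0.105) of that age. It also ended with that age fitted alone (adjusted p = 0.0610) and with Xist as a covariate (0.22, adjusted p = 0.0566), a transcript found in 1 of 3 N40K libraries and 2 of 3 wild-type libraries at 3 months. Between 12 and 3 months Cry1 fell by 0.44 ± 0.057 in N40K mice and by 0.49 ± 0.057 in wild type (adjusted p = 0.000113 and 0.000105).

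Cry2 was the one gene of the 10 that was not called between ages in either genotype (0.062 ± 0.055 in N40K mice and -0.035 ± 0.055 in wild type, adjusted p = 0.366 and 0.639). It had 30.6, 29.5 and 28.0 FPKM in N40K libraries against 27.1, 23.8 and 26.7 FPKM in wild-type libraries at 12 months, and 28.0, 27.2 and 29.0 FPKM against 26.5, 25.5 and 27.5 FPKM at 3 months. The genotypes separated at 12 months and overlapped at 3 months. The difference of 0.18 ± 0.055 at 12 months was close to the threshold (adjusted p = 0.0433) and lost the call when any one of 9 libraries was left out: each of the 6 of the 3-month groups, whose values enter only the shared spread (adjusted p between 0.0506 and 0.0581), N40K replicate 1 (0.15, adjusted p = 0.158) or 2 (0.17, adjusted p = 0.116) or wild-type replicate 2 (0.12, adjusted p = 0.124) at 12 months. Cry2 shares 295 bases of exon with D930015M05Rik on the opposite strand in GENCODE M21. Whether counting used the strand is not given in the sources used here, and their reads cannot be told apart. D930015M05Rik was also higher in N40K mice at 12 months, by 0.31 ± 0.061 (adjusted p = 0.00651), with 7.49, 6.82 and 6.34 FPKM in N40K libraries against 5.78, 4.96 and 5.39 FPKM in wild-type libraries.

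Nr1d1, which encodes the Arntl repressor REV-ERB alpha and had the highest FPKM of the 10 genes in every group, separated the genotypes at both ages. Its level was 61.2, 63.7 and 60.7 FPKM in N40K libraries against 55.2, 51.9 and 54.2 FPKM in wild-type libraries at 12 months, and 80.8, 79.9 and 79.3 FPKM against 72.8, 70.0 and 69.5 FPKM at 3 months. It was higher in N40K mice by 0.20 ± 0.037 at 12 months (adjusted p = 0.00487) and by 0.17 ± 0.037 at 3 months (adjusted p = 0.0127). The call at 12 months held in every alternative run. The call at 3 months ended with median-ratio scaling (0.14, adjusted p = 0.0563), without wild-type replicate 2 (0.17, adjusted p = 0.0546) and without wild-type replicate 3 (0.16, adjusted p = 0.0501) of that age. It also ended with the trend against transcript length removed (0.14, adjusted p = 0.0535). With age Nr1d1 fell by 0.37 ± 0.037 in N40K mice and by 0.39 ± 0.037 in wild type (adjusted p = 2.5e-05 and 3.2e-05).

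Nr1d1 shares 263 bases of exon with Thra, a thyroid hormone receptor gene on the opposite strand. Thra had 284, 295 and 281 FPKM in N40K libraries against 277, 319 and 294 FPKM in wild-type libraries at 12 months, where the groups overlapped. At 3 months it had 356, 348 and 351 FPKM in N40K libraries against 318, 330 and 290 FPKM in wild-type libraries, a difference of 0.17 ± 0.059 that was not called (adjusted p = 0.0890). Reads in the shared bases cannot be assigned to one of these genes here.

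For Nr1d2, which encodes the paralog REV-ERB beta, no difference between genotypes was detected. It had 20.2, 20.1 and 20.8 FPKM in N40K libraries against 21.1, 18.7 and 20.6 FPKM in wild-type libraries at 12 months, and 22.4, 22.8 and 21.3 FPKM against 22.9, 22.5 and 24.6 FPKM at 3 months. The genotypes overlapped at both ages, with differences of 0.018 ± 0.052 and -0.069 ± 0.052 (adjusted p = 0.844 and 0.455). The age difference was -0.12 ± 0.052 in N40K mice, which was not called (adjusted p = 0.0753) but passed without wild-type replicate 2 at 12 months (adjusted p = 0.0313). In wild type it was -0.21 ± 0.052 (adjusted p = 0.00859), a call that ended with median-ratio scaling (-0.13, adjusted p = 0.0613).

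Dbp, the D-box factor driven directly by ARNTL and CLOCK, had the largest genotype difference of the 10 genes at 12 months. Its level was 27.3, 28.2 and 24.5 FPKM in N40K libraries against 20.9, 19.0 and 20.3 FPKM in wild-type libraries at 12 months. At 3 months it was 37.4, 52.3 and 48.5 FPKM in N40K libraries against 36.6, 33.1 and 37.5 FPKM in wild-type libraries. At 12 months the genotypes were apart, while at 3 months N40K replicate 1 fell among the wild-type libraries. The difference was 0.39 ± 0.10 at 12 months (adjusted p = 0.0240) and 0.35 ± 0.10 at 3 months (adjusted p = 0.0538). N40K replicate 1 at 3 months is the library with the high striatal marker sum, and without it the 3-month difference was 0.49 (adjusted p = 0.00308). The 12-month call ended without N40K replicate 1 (0.37, adjusted p = 0.0797) or 2 (0.35, adjusted p = 0.0886) or wild-type replicate 2 (0.35, adjusted p = 0.0783) of that age.

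Dbp was also the most reduced of the 10 genes at 12 months in wild type, by -0.80 ± 0.10 (adjusted p = 0.000204), and it was lower by -0.76 ± 0.10 in N40K mice (adjusted p = 0.000164). It shares 539 bases of exon with Sphk2, a sphingosine kinase gene on the opposite strand. Sphk2 had no called genotype difference (0.0095 ± 0.045 at 12 months and 0.053 ± 0.045 at 3 months, adjusted p = 0.906 and 0.523). It was lower at 12 months than at 3 months by -0.43 ± 0.045 in N40K mice and -0.39 ± 0.045 in wild type.

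**Figure D2:**
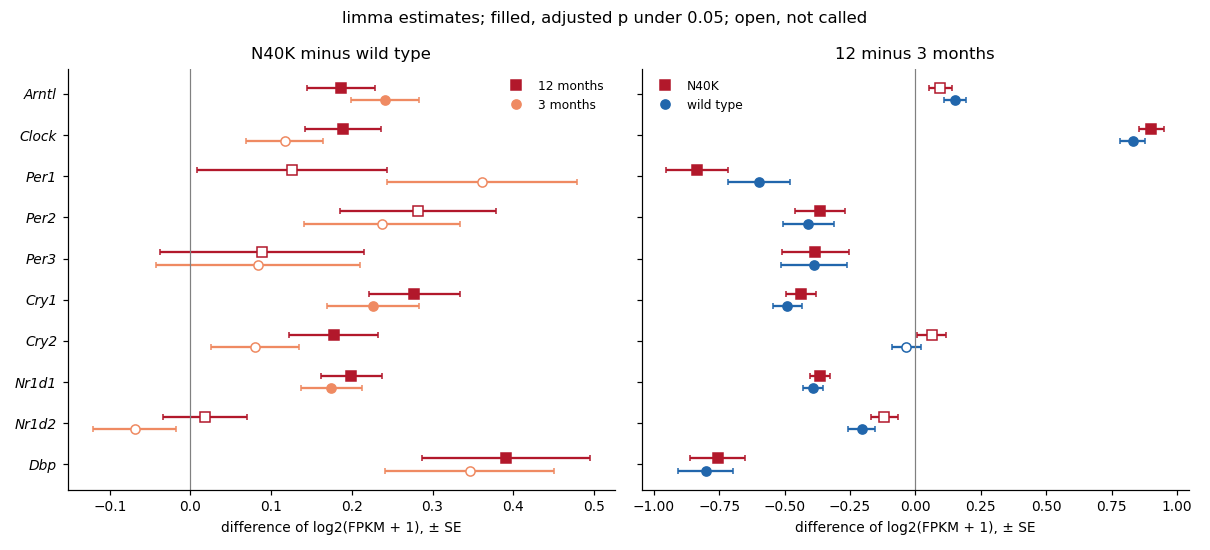
Differences of log2(FPKM + 1) with standard errors (horizontal axes) for each clock gene, N40K minus wild type at each age on the left and 12 minus 3 months in each genotype on the right. Filled symbols had a limma adjusted p under 0.05. The genotype differences lie mostly between 0 and 0.4 at both ages. The age differences are negative apart from Arntl and Clock in both genotypes and Cry2 in N40K mice.

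Whether the genotype difference itself changed with age was tested as an interaction. None of the 10 genes was called by limma, and none had an unadjusted p under 0.05, against 0.0645% of all tested genes called (9 of 13945). The lowest unadjusted p was 0.184, for Per1, whose difference was smaller at 12 months by -0.24 ± 0.17. Averaged over both ages, 7 of the 10 genes were called higher, against 15.5% of all tested genes. These were Arntl (0.21), Clock (0.15), Per2 (0.26), Cry1 (0.25), Cry2 (0.13), Nr1d1 (0.19) and Dbp (0.37), while Per1 (0.24, adjusted p = 0.0527) was just outside. Per1 was called without wild-type replicate 3 of either age (0.31, adjusted p = 0.00751, for that of 12 months and 0.29, adjusted p = 0.0308, for that of 3 months). Cry2 was close to the threshold here too, and lost the call without any one of N40K replicates 1 and 3 and wild-type replicates 1 and 2 at 3 months and N40K replicates 1 and 2 at 12 months, with adjusted p between 0.0521 and 0.0783.

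Between the ages most of the 10 clock genes were called in each genotype, and all but Cry2 differed in the same direction in both. In N40K mice Clock was called higher, 1 of 10 genes against 15.1% of all tested genes, and Per1, Per2, Per3, Cry1, Nr1d1 and Dbp were called lower, 6 of 10 against 36.5%. In wild type Arntl and Clock were called higher, 2 of 10 against 12.6%, and 7 of 10 were called lower, those 6 and Nr1d2, against 29.0%. In either direction 51.6% of all tested genes were called in N40K mice and 41.6% in wild type. Without overlap of the libraries, 2 of 10 genes were above and 7 below at 12 months in N40K mice (19.1% and 43.7% of all tested genes), and likewise 2 above and 7 below in wild type (15.7% and 34.5%). The median difference over the 10 genes was -0.36 in N40K mice and -0.39 in wild type, where that of all tested genes was -0.10 and -0.077. Large parts of the transcriptome thus differed between the ages, and the 12-month and 3-month libraries carry library numbers from separate ranges, so age and anything else that differed between those ranges cannot be told apart. Xist, a transcript of females, was at most 0.072 FPKM in all 6 libraries at 12 months, and at 13.5 to 17.3 FPKM in 3 of the 6 at 3 months, so the age groups differed in it too. With Xist as a covariate Clock, Per1, Per2, Cry1, Nr1d1 and Dbp were still called in both genotypes, Per3 in N40K mice only and Nr1d2 in wild type only. Arntl (0.14, adjusted p = 0.0742) and Per3 (-0.43, adjusted p = 0.0651) lost their calls in wild type.

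Among all tested genes, 29.3% of the age calls in N40K mice and 30.3% in wild type were higher at 12 months. This split was 51.6% and 50.7% with median-ratio scaling, 46.4% and 49.4% with quantile normalization, and 50.4% and 49.5% with the trend of each library against transcript length removed. The last of these moved the median of all tested genes to -0.00055 in N40K mice, against -0.10 without it. Between genotypes at 3 months, 69.5% of calls were higher, and 53.5%, 54.4% and 54.6% in the same 3 alternatives. Averaged over both ages, the share was 61.9%, and 52.9% with median-ratio scaling, 49.8% with quantile normalization and 51.5% with the length trend removed. No difference of a clock gene with an unadjusted p under 0.05 changed sign in any alternative.

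The rise of Clock with age stood among other long transcripts. Its longest GENCODE transcript has 9744 bases, and of the 768 tested genes with a transcript over 8 kb, 68.2% were called higher at 12 months in N40K mice and 56.4% in wild type, against 5.07% and 5.27% of genes up to 2 kb. The median difference of genes over 8 kb was 0.35 in N40K mice and 0.25 in wild type, and that of genes up to 2 kb -0.25 and -0.16. With the length trend removed, an alternative chosen after seeing the data, Clock was still higher at 12 months, by 0.58 in N40K mice and 0.60 in wild type (adjusted p = 5.4e-06 and 7.0e-06). Its genotype difference at 12 months was then 0.096 and no longer called (adjusted p = 0.153). Nr1d1 also lost its genotype call at 3 months (0.14, adjusted p = 0.0535). Cry2 lost its calls at 12 months (0.17, adjusted p = 0.0548) and averaged over both ages (0.11, adjusted p = 0.0510). The other 9 clock genes have longest transcripts of 1837 (Dbp) to 5999 (Per3) bases, and the same step made several of their age differences smaller. Nr1d1 then differed by -0.20 in N40K mice and -0.27 in wild type, Cry1 by -0.29 and -0.38, and Dbp by -0.53 and -0.66, all still called. Arntl was higher at 12 months by 0.18 in N40K mice, which was then called (adjusted p = 0.00769), and by 0.23 in wild type.

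**Figure D3:**
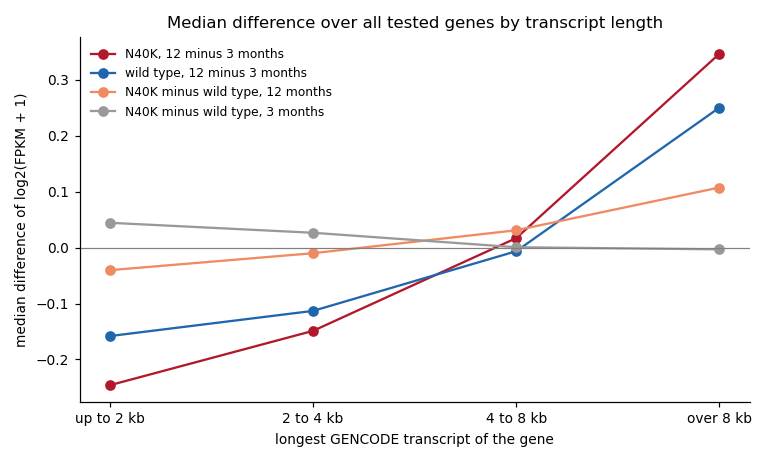
Median difference of log2(FPKM + 1) over all tested genes (vertical axis) in 4 classes of the longest GENCODE transcript (horizontal axis), for N40K and wild type between ages and for both genotype comparisons. Genes over 8 kb, the class of Clock, have a median of 0.35 in N40K mice and 0.25 in wild type between ages, and genes up to 2 kb have negative medians.

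The order of the clock genes by FPKM also differed between the ages. At 12 months in N40K mice it ran Nr1d1 (61.9), Cry2 (29.4), Dbp (26.7), Nr1d2 (20.4), Per1 (15.7), Arntl (13.7), Clock (12.6), Per3 (8.97), Per2 (7.70) and Cry1 (5.35 FPKM on average). Wild type at 12 months had the same order apart from Dbp and Nr1d2, whose libraries overlapped there (20.07 and 20.1 FPKM). At 3 months Clock was last and Dbp second in both genotypes, with 6.29 and 46.1 FPKM in N40K mice and 5.73 and 35.7 FPKM in wild type. Neighbours whose libraries overlapped were Cry2 with Dbp and Per3 with Per2 in N40K mice at 12 months, Nr1d2 with Dbp and Per3 with Per2 in wild type at 12 months, Per1 with Cry2 and Arntl with Per3 in N40K mice at 3 months, and Nr1d2 with Per1 and Per3 with Arntl in wild type at 3 months.

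The ratio of Dbp to Arntl, RNAs that peak at opposite times of day, was computed for each library as a description. It was 1.996, 2.07 and 1.78 in N40K libraries against 1.75, 1.59 and 1.72 in wild-type libraries at 12 months. At 3 months it was 2.87, 4.30 and 3.73 in N40K libraries against 3.31, 3.10 and 3.71 in wild-type libraries. All 6 ratios at 12 months were below all 6 at 3 months, and the genotypes overlapped at 3 months only. The part of the shift with transcript length in these ratios was not tested.

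Libraries of one group varied little in most clock genes and more in the Per genes. The median coefficient of variation over the 4 groups was 11.02% for Per1, 9.88% for Per3, 7.72% for Per2 and 6.93% for Dbp, and 2.24% to 4.82% for the other 6 genes. Whether pairs of clock genes deviated together within groups was tested over the 12 libraries after subtraction of group means, by an exact two-sided permutation test over all arrangements within groups. None of the 45 pairs was called after Benjamini-Hochberg adjustment by Pearson or Spearman correlation, where the smallest adjusted p the design allows for a single pair is 0.0347. Before adjustment 4 pairs had p under 0.05 by Pearson. They were Per1 with Per2 (r = 0.83, rho = 0.73, exact p = 0.0324 and 0.0494), Per3 with Cry2 (r = 0.80, rho = 0.77, exact p = 0.0378 and 0.0309), Per3 with Dbp (r = 0.47, rho = 0.43, exact p = 0.0378 and 0.179) and Arntl with Per2 (r = -0.48, rho = -0.65, exact p = 0.0154 and 0.0170). The adjusted p was 0.367 for all 4 by Pearson. Without the 2 libraries farthest from the median of the first gene, r was 0.71, 0.51, 0.36 and -0.41 in the same order.

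The genes most like 3 of the clock genes within groups were looked up among 12026 genes with a mean of at least 2 FPKM, as a description over the 12 libraries. Nearest to Dbp were Zcrb1 (r = 0.896), Matn4, Efcc1, Zfp511 and 9430041J12Rik, and nearest to Arntl were Tcf25 (r = 0.939), 8430419L09Rik, Fam219a, Usp20 and Dnm1. Nearest to Per1 were Kdm6b (r = 0.916), Qser1, Snora34, Igf1r and Clk1. No clock gene was among these 15.

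Other genes of the pathway did not follow a single direction. Of 9 tested outputs and feedback genes of the clock, 3 were called higher and 1 lower in N40K mice at 12 months, with a median of -0.030, where 11.2% and 7.71% of all tested genes were called higher and lower. At 3 months 2 were higher and 0 lower, with a median of 0.11, against 7.95% and 3.49%. Usp2, a rhythmic deubiquitinase gene, had 17.1, 16.7 and 17.6 FPKM in N40K libraries against 15.3, 12.2 and 13.5 FPKM in wild-type libraries at 12 months, without overlap. It was higher by 0.32 ± 0.074 (adjusted p = 0.0132). Bhlhe40 and Bhlhe41, which encode the E-box repressors DEC1 and DEC2, were called higher averaged over both ages, by 0.15 ± 0.032 and 0.17 ± 0.035 (adjusted p = 0.00453 and 0.00461). Those 3 calls held in every alternative run.

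Gm129, the table's name for the clock repressor gene Ciart, had 8.43, 8.30 and 6.18 FPKM in N40K libraries against 5.74, 3.78 and 6.19 FPKM in wild-type libraries at 12 months, where 1 N40K library overlapped wild type. The difference of 0.48 ± 0.14 was called (adjusted p = 0.0366), and the call ended without N40K replicate 1 (0.41, adjusted p = 0.132) or 2 (0.42, adjusted p = 0.124) or wild-type replicate 2 (0.30, adjusted p = 0.0992) at 12 months, or wild-type replicate 2 at 3 months (0.48, adjusted p = 0.0508). Between ages it was lower at 12 months, as Dbp was, by -0.84 ± 0.14 in N40K mice and -1.18 ± 0.14 in wild type (adjusted p = 0.000606 and 0.000134). In all, 0 of the 9 outputs were called higher and 4 lower at 12 months in N40K mice, and 1 higher and 3 lower in wild type. Of all tested genes, 15.1% were called higher and 36.5% lower in N40K mice, and 12.6% and 29.0% in wild type.

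Of the 5 other transcription factors of the clock, 1 was called higher in N40K mice at 12 months and 0 by limma at 3 months, where 0 had an unadjusted p under 0.05. Of all tested genes, 11.2% were called higher at 12 months and 7.95% at 3 months. Rora, an activator of Arntl through the element shown above, differed between ages in the direction of Clock. It had 3.57, 3.49 and 4.19 FPKM in N40K libraries at 12 months against 0.801, 0.906 and 0.883 FPKM at 3 months, and 3.44, 2.98 and 3.25 FPKM in wild-type libraries at 12 months against 0.855, 0.884 and 0.826 FPKM at 3 months. The differences were 1.35 ± 0.070 and 1.18 ± 0.070 (adjusted p = 3.2e-07 and 1.1e-06), and 1.996 and 1.80 with a pseudocount of 0.1. Every 3-month library was under 1 FPKM. Rora thus passed the filter on low values only through the 12-month libraries, where it was high, and its p-values carry that selection. Of the 5 factors, 3 were called higher and 1 lower at 12 months than at 3 months in N40K mice. In wild type 1 was called higher and 1 lower. The lower one was Rorb, with means of 1.36 against 1.86 FPKM in N40K mice and 1.39 against 1.99 FPKM in wild type. Of all tested genes, 15.1% were higher and 36.5% lower in N40K mice, and 12.6% and 29.0% in wild type. Of 9 corepressors and partners of clock proteins, 1 was called higher in N40K mice at 12 months and 0 by limma at 3 months, where 2 had an unadjusted p under 0.05. The shares of all tested genes called higher were again 11.2% and 7.95%. Between ages 1 of the 9, Ncor1, was called higher in each genotype, and 3 were called lower in N40K mice and 4 in wild type. Ncor1, the corepressor that the Nr1d proteins recruit, was also higher at 12 months than at 3 months, by 0.80 ± 0.061 in N40K mice and 0.69 ± 0.061 in wild type (adjusted p = 4.0e-06 and 1.8e-05). With the length trend removed these were 0.51 and 0.49 for Ncor1, and 0.97 and 0.92 for Rora, all still called.

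Of 12 kinases and ubiquitin ligases that modify clock proteins, 2 were called higher and 1 lower in N40K mice at 12 months, and 2 higher and 0 lower at 3 months. Of all tested genes, 11.2% were higher and 7.71% lower at 12 months, and 7.95% and 3.49% at 3 months. Csnk2a2, a catalytic subunit of casein kinase 2, was higher in every N40K library at both ages. It had 9.97, 10.2 and 10.2 FPKM in N40K libraries against 8.18, 8.68 and 9.11 FPKM in wild-type libraries at 12 months, and a difference of 0.21 ± 0.043 (adjusted p = 0.00853). Averaged over both ages it was higher by 0.20 ± 0.031 (adjusted p = 0.000948), and Fbxw11, an F-box protein gene of the ligase that targets PER, was lower by -0.13 ± 0.033 (adjusted p = 0.0160).

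Genes that respond to temperature, some of them rhythmic through the daily change of body temperature, divided at 12 months into cold-induced genes that were higher and heat shock genes that were lower in N40K mice. Of 8 tested, 2 were called higher and 6 lower, where 18.9% of all tested genes were called in either direction. Rbm3, a cold-induced RNA-binding protein gene, had 19.3, 20.3 and 18.6 FPKM in N40K libraries against 16.6, 14.4 and 15.5 FPKM in wild-type libraries, and was higher by 0.31 ± 0.055 (adjusted p = 0.00352). Cirbp, its relative that is known to affect clock transcripts, had 51.6, 55.9 and 47.2 FPKM in N40K libraries against 42.8, 37.6 and 35.9 FPKM in wild-type libraries. Neither gene overlapped between genotypes. The difference of Cirbp was 0.40 ± 0.091 (adjusted p = 0.0118) and lost the call without N40K replicate 2 of that age (0.34, adjusted p = 0.0537).

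Hspa8, a constitutive heat shock cognate gene, had 642, 676 and 703 FPKM in N40K libraries against 831, 966 and 826 FPKM in wild-type libraries at 12 months. It was lower in N40K mice by -0.37 ± 0.073 (adjusted p = 0.00617; -0.20 with quantile normalization), and Hspa1b, an inducible member of the family with a near-identical copy (Hspa1a) that makes its counts uncertain, by -0.60 ± 0.13 (adjusted p = 0.00993, and just over the threshold at 0.0501 with the 12-month libraries fitted alone). At 3 months 1 of the 8 was called higher and 0 lower, where 11.4% of all tested genes were called. Between ages Rbm3 was lower at 12 months by -0.94 ± 0.055 in N40K mice and -1.22 ± 0.055 in wild type (adjusted p = 6.4e-07 and 4.4e-07), and Cirbp by -0.62 ± 0.091 and -0.83 ± 0.091 (adjusted p = 0.000240 and 7.4e-05), the value of Cirbp in N40K mice being -0.37 with the length trend removed.

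**Figure D4:**
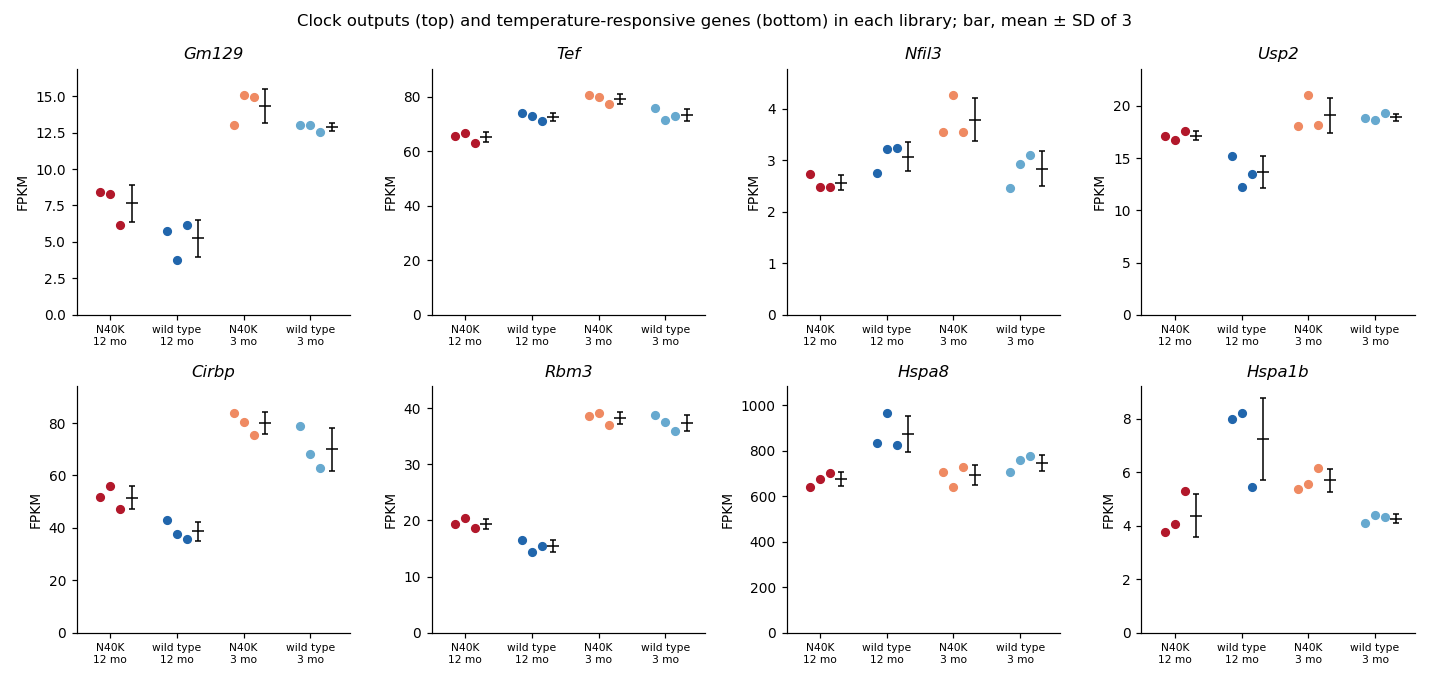
FPKM (vertical axes, each from 0) of 4 clock outputs (Gm129, Tef, Nfil3 and Usp2) and 4 temperature-responsive genes (Cirbp, Rbm3, Hspa8 and Hspa1b) in each library (dots) of the 4 groups, with mean ± SD of 3 libraries as bars. At 12 months Usp2, Cirbp and Rbm3 lie higher and Hspa8 and Hspa1b lower in N40K libraries than in wild type.

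The last lists bear on Per1, which glucocorticoids and neuronal activity can induce. Of 11 glucocorticoid-induced genes, 0 were called higher and 1 lower in N40K mice at 12 months, and 0 either way by limma at 3 months, where 1 had an unadjusted p under 0.05. Of all tested genes, 7.71% were called lower at 12 months and 11.4% either way at 3 months. The 1 called was Tsc22d3, which encodes the glucocorticoid-induced leucine zipper, with 16.7, 16.1 and 15.4 FPKM in N40K libraries against 19.4, 23.1 and 20.2 FPKM in wild-type libraries (-0.36 ± 0.058, adjusted p = 0.00233). Of 11 activity-induced genes, 2 were called higher and 0 lower in N40K mice at 3 months, and 0 higher and 1 lower at 12 months, where 7.95% of all tested genes were called higher at 3 months and 7.71% lower at 12 months. Egr2, a zinc finger gene of the immediate early response, had 1.80, 1.55 and 2.14 FPKM in N40K libraries against 0.305, 0.884 and 0.895 FPKM in wild-type libraries at 3 months, and was higher by 0.76 ± 0.16 (adjusted p = 0.0105), or 1.38 with a pseudocount of 0.1. At 12 months Egr2 was at most 0.722 FPKM in either genotype. It thus passed the filter of 1 FPKM only through the group where it was high, and its p-values carry that selection. The counts of activity-induced genes called at 3 months, and between ages in N40K mice, include it. Between ages 10 of the 11 were called lower at 12 months in N40K mice (36.5% of all tested genes) and 5 lower and 1 higher in wild type (29.0% and 12.6%). Npas4, a transcription factor gene of active neurons, was lower by -0.74 ± 0.12 in N40K mice and -0.96 ± 0.12 in wild type (adjusted p = 0.000409 and 0.000139).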

How the data were processed

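Hippocampal poly-A RNA libraries (TruSeq, paired 100 bp reads, Illumina HiSeq, per the labels' protocols) gave 1 table of FPKM values deposited by the authors, with 23352 gene entries. CASAVA, STAR, BWA and mm9 are named, without roles or versions, in the submitters' processing notes. The counting tool, annotation and strand setting are not given in the sources used here. All columns matched library labels. FPKM sums ran from 309358 to 350760. Depth, estimated from steps among the lowest values of 916 receptor genes, was 39.7 to 96.8 M reads. Only 40.4% to 75.0% of those values were whole reads within 0.02, which makes the depths approximate and leaves no basis for a count test.

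Tests used log2(FPKM + 1), which understates changes of low genes, where a gene reached 1 FPKM in at least 3 libraries. One limma model (3.58.1, R 4.3.3) with 4 group means, eBayes with a mean trend and two-sided tests gave the genotype difference at each age, their average and interaction, and the age difference in each genotype. Benjamini-Hochberg adjustment ran over all tested genes. Within-group correlations and tables used Python 3.11.15 (pandas 2.3.3, numpy 2.4.6, scipy 1.17.1), plots matplotlib 3.10.9. GENCODE M21, on another build, gave lengths and overlaps only, and 92.8% of entries matched it. Scripts were tested on simulated data.

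The 10 clock genes and the 7 lists (66 genes, 65 in the table) were chosen with earlier results of these data known. Clock genes are given in every library. Up to 4 called genes per list and comparison could be named, and for lists mostly those whose call held in every alternative were. Each library was left out in turn, each age was fitted alone, the replicate number was used as a block and Xist as a covariate. Scaling by median ratios or quantiles, pseudocounts of 0.1 and 0.5, a stricter filter (mean of 5 FPKM) and none were the other alternatives. Removal of the lowess trend (span 0.3) against transcript length and Ttr as a covariate were added after seeing the data.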

Additional observations from a re-analysis of the deposited data

Results flagged for a closer look

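No clock gene of the 10 was flagged. Of the list genes, 6 moved in opposite directions between genotypes at the 2 ages, with N40K libraries all above wild type at 3 months and all below at 12 months. The limma interaction (12-month minus 3-month genotype difference) was -0.26 for Tef (adjusted p = 0.119), a clock output gene, -0.51 for Nfil3 (adjusted p = 0.141), a repressor at D-boxes, and -0.51 for Tsc22d3 (adjusted p = 0.0648). It was -0.63 for Hspa1a (adjusted p = 0.130), -0.95 for Hspa1b (adjusted p = 0.112) and -0.48 for Dnajb1 (adjusted p = 0.0919), all heat shock genes. None of these differences passed the threshold. Tef had 65.8, 66.8 and 63.3 FPKM in N40K libraries against 74.2, 72.9 and 71.2 FPKM in wild-type libraries at 12 months, and 80.7, 79.9 and 77.2 FPKM against 75.8, 71.5 and 73.1 FPKM at 3 months. Hspa1b also moved in opposite directions with age, lower at 12 months in every N40K library and higher in every wild-type library, which is the same interaction of -0.95. These genes were picked out after their values were seen, and Hspa1a and Hspa1b are near-identical copies whose reads may be split arbitrarily.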

How the results depend on the processing

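Of 40 clock gene differences with an unadjusted p under 0.05, 23 kept direction and side of the threshold in every alternative, and 0 changed sign. Of 894 alternative values, 823 kept both, 56 lost the call and 15 gained it. With each library left out in turn, the clock genes called numbered 3 to 7 at 12 months, 1 to 5 at 3 months, 6 to 8 averaged, 0 for the interaction, and 6 to 8 in N40K mice and 7 to 9 in wild type between ages. Of 89 differences of list genes, 43 were kept throughout. With the length trend removed Bhlhe40 (0.0075) and Wdr5 (0.023) reversed their fall with age in N40K mice and were no longer called, the alternative by its construction changing values with length.

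The numbers of calls over all genes moved by over 1.5 times at 12 months without N40K replicate 1 or 2 of that age (1356 and 1418 against 2632) or with that age alone (1499), at 3 months without N40K replicate 2 or 3 or wild-type replicate 1 or 2 of that age (874, 892, 1015 and 797 against 1596), and in N40K mice between ages with the length trend removed (4519 against 7200). The interaction gave 9 genes, and between 0 and 162 with a library left out, 4 with the length trend removed and 0 with Xist as a covariate. Same-numbered libraries showed no uniform pairing: 7 of 18 pairs had a correlation of deviations over 0.1 (range -0.46 to 0.72). Of the 12 libraries, 7 correlated best with their own number, and the number to be had by chance was not computed. With the replicate number as a block Per1 was called averaged over both ages (0.24, adjusted p = 0.0457), Gm129 lost its call at 12 months (0.48, adjusted p = 0.0590), the other clock gene calls were kept, and the interaction gave 0 genes. Depth limits the low-level genes such as Egr2 most.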
